A study of Mus musculus with 5 samples.

Results

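The visual cycle genes Rlbp1, Rgr, Rpe65, Rdh5, Rdh10, Rdh11 and Lrat were taken by gene symbol from a nuclear RNA-seq table of mouse retina, and all 7 were among its 16422 genes. The animals carried a tamoxifen-induced Cre recombinase under the Aldh1l1 promoter (Aldhl1l-Cre/Ert2+ in the labels) and NuTRAP+, a reporter that Cre switches on and that leads to biotin on the nuclear envelope. Every library, control included, came from this genotype and from 2 pooled retinae of 1 animal. Input libraries (animals 40 and 55, n = 2) held unselected retinal nuclei, taken as 10% of the suspension. Positive libraries (animals 12, 40 and 55, n = 3) held nuclei bound by streptavidin beads, which the series' design text calls Müller glia. Undissociated tissue, mostly vessels per the labels' protocols, was spun out before the nuclei were divided. The labels used here state no age and no tamoxifen schedule, and their protocol text opens with brain although source and tissue are given as retina. The Aldh1l1 promoter is active in astrocytes as well as in Müller glia, so the capture selects by that promoter and not by a Müller-specific gene. In bulk nuclei, more nuclei of one type and more RNA per nucleus cannot be told apart.

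Vision depends on the renewal of 11-cis-retinal, the chromophore that light isomerises in opsins. In the classical cycle the retinal pigment epithelium, the pigmented layer behind the photoreceptors, esterifies all-trans-retinol, isomerises the ester to 11-cis-retinol and oxidises it back to 11-cis-retinal. Müller glia, which span the neural retina, hold retinaldehyde-binding protein and an RGR opsin and have been placed in a second route that supplies cones. Rpe65 encodes the isomerohydrolase, Lrat the acyltransferase that makes retinyl esters and Rdh5 the 11-cis-retinol dehydrogenase, and these enzymes belong mainly to the pigment epithelium. Rlbp1 encodes the cellular retinaldehyde-binding protein, Rgr the retinal G-protein-coupled receptor opsin and Rdh10 a retinol dehydrogenase, and these are made in Müller glia and in the pigment epithelium. Rdh11 encodes a retinol dehydrogenase of wider expression.

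The promoters of Rpe65, Rgr and Rlbp1 are shown because Rpe65 and Rgr had the largest differences of the 7 genes and Rlbp1 is the gene against which the pigment epithelium enzymes are set. Each is 250 bases before to 50 after the RefSeq start (GRCm38.p6), on the gene's own strand. For Rgr the whole window lies outside the gene coordinates given below, which reach 37048964. The promoter set and those coordinates thus place the Rgr start differently, and distances here follow the promoter set. Capitals mark TAATCC or its reverse complement GGATTA, the core bound by the OTX and CRX homeodomain factors, and CATGTG or its reverse complement CACATG, the M-box core bound by MITF and other basic helix-loop-helix factors.
Rpe65, chr3:159598931-159599230, plus strand: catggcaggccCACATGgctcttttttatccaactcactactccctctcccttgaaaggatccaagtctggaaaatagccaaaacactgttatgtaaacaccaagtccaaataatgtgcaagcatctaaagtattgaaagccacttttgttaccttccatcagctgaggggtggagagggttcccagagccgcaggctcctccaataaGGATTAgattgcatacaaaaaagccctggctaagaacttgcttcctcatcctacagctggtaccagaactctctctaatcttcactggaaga
Rgr, chr14:37048965-37049264, minus strand: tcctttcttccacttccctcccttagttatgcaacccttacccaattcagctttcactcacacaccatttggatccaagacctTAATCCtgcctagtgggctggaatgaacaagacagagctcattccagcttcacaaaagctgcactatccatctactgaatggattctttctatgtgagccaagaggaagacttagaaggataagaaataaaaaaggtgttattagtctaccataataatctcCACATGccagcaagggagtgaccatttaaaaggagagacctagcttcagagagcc
Rlbp1, chr7:79386978-79387277, minus strand: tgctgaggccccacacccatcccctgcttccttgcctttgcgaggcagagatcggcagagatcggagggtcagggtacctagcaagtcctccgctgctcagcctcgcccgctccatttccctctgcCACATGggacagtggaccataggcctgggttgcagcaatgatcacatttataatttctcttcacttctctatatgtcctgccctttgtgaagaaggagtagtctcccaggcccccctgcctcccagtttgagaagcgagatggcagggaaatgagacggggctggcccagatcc

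RefSeq promoters matched 6 of the 7 genes by symbol, all but Rdh10. The OTX and CRX core was found in Rpe65, beginning 42 bases before the start, and in Rgr, beginning 167 bases before it, and 7.06% of all 32851 promoters of this length hold it on either strand. The M-box core was found in Rpe65, Rgr and Rlbp1, against 14.2% of all promoters. A SOX core, ACAATG or CATTGT, was found in the Rdh5 promoter, against 12.6% of all. The windows of Lrat and Rdh11 held none of these letters. The searched cores do not overlap one another in these promoters, and a match describes the letters only.

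All 7 genes had a higher mean in Positive than in Input nuclei, and in 6 of them, all but Lrat, every Positive value exceeded both Input values. That separation held for 16.7% of all genes tested, and a log2 fold change over 0 for 46.99%. The log2 fold changes ran from 0.17 for Rdh11 to 1.29 for Rpe65 with a median of 0.44, beside a median of -0.02 over all genes. None of the 7 passed limma's test over all genes at an adjusted p under 0.05, as no gene in the table did (0% of 16422, lowest adjusted p 0.0542). At an unadjusted p under 0.05, 4 of the 7 were higher (Rpe65, Rgr, Rlbp1 and Rdh5), against 6.45% of all genes higher at that level and 7.76% lower. The values are log2 ratios to an Input baseline of each gene, so no expression level can be read from them, and their depth is unknown. A value of 0 means the baseline and not an absent transcript.

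**Figure D1:**
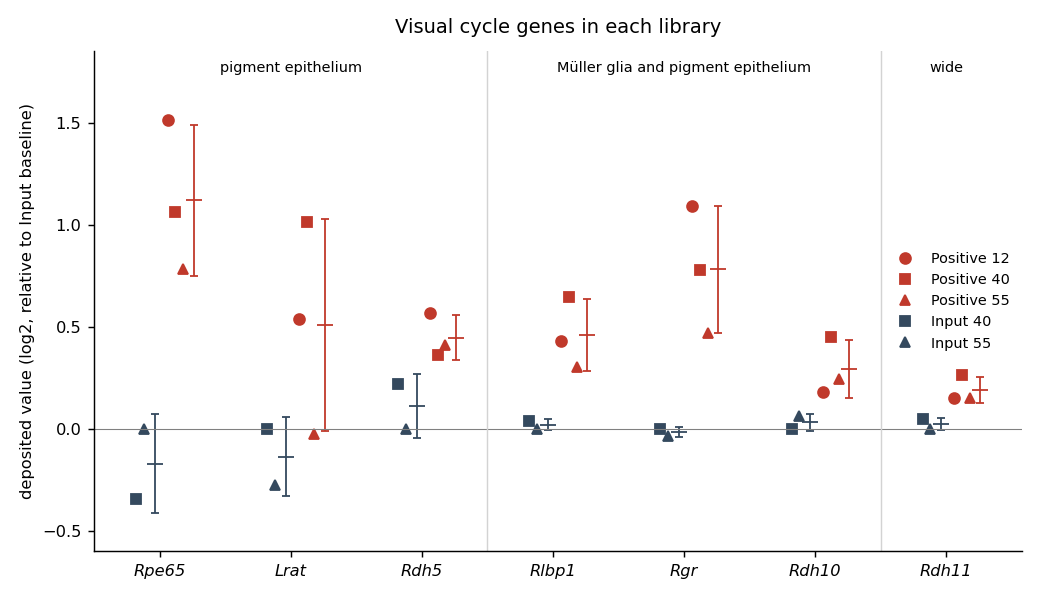
Deposited log2 value (vertical axis, relative to each gene's Input baseline) of the 7 visual cycle genes in the 5 libraries, with group means and SDs as bars beside the points (n = 3 Positive, n = 2 Input). Positive values lie above both Input values in every gene but Lrat, whose Positive 55 value of -0.03 is below the Input 40 value of 0.

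Rpe65, the isomerohydrolase gene (Entrez gene 19892, mm10 chromosome 3, 159599181 to 159625307), stood furthest from Input of the 7. Its log2 values were 1.51, 1.06 and 0.78 in Positive 12, 40 and 55, and -0.34 and 0.00 in Input 40 and 55. The lowest Positive value was 0.78 above the highest Input value. The means were 1.12 ± 0.37 (SD, n = 3) and -0.17 ± 0.24 (SD, n = 2), which differ by 1.29 on the log2 scale (2.45-fold; limma SE 0.25, 95% interval 0.64 to 1.94, adjusted p = 0.331). Only 125 of the 16422 genes, or 0.761%, had a larger log2 fold change. The difference was 1.41 within animal 40 and 0.78 within animal 55, and Positive 12 lay 1.69 above the Input mean.

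Lrat, which makes the retinyl esters that RPE65 isomerises (Entrez gene 79235, chromosome 3, 82892582 to 82903974), varied most among the Positive libraries. It had 0.54, 1.01 and -0.03 in Positive 12, 40 and 55, and 0.00 and -0.28 in Input 40 and 55. Positive 55 overlapped the Input libraries, while within each animal the Positive value was the higher, by 1.01 in animal 40 and 0.25 in animal 55. Its log2 fold change of 0.65 had a limma SE of 0.33, a 95% interval of -0.20 to 1.49 and an adjusted p of 0.406. Without Positive 40 it was 0.39. GENCODE M21 places an antisense gene, Rbm46os, across the whole of Lrat. Strand use and counting intervals are not stated, so whether reads of Rbm46os entered the Lrat value cannot be told.

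Rdh5, the 11-cis-retinol dehydrogenase gene (Entrez gene 19682, chromosome 10, 128913591 to 128919297), was the least displaced of the pigment epithelium enzymes. Its values were 0.57, 0.36 and 0.41 in Positive 12, 40 and 55 and 0.22 and 0.00 in Input 40 and 55. The groups were separate by 0.14. The log2 fold change was 0.34 (SE 0.11, 95% interval 0.04 to 0.63; adjusted p = 0.338 in limma), and 0.10 after quantile normalization. The gene's span overlaps that of Bloc1s1 on the same strand by 1416 bases in GENCODE M21. Counting intervals are unknown, so whether reads of the overlap entered the Rdh5 value cannot be told. Bloc1s1 itself had a log2 fold change of 0.26 (limma SE 0.17).

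Rgr, the gene of the light-sensitive RGR opsin (Entrez gene 57811, chromosome 14, 37037490 to 37048964), was second to Rpe65. It had 1.09, 0.78 and 0.47 in Positive 12, 40 and 55 and 0.00 and -0.03 in Input 40 and 55. The gap between the groups was 0.47. The log2 fold change was 0.80 (1.74-fold, SE 0.20, 95% interval 0.29 to 1.31; adjusted p = 0.331 in limma), exceeded by 2.23% of all genes. Rgr shared with Rpe65 the order of the Positive libraries, animal 12 above 40 above 55.

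Rlbp1, the retinaldehyde-binding protein gene (Entrez gene 19771, chromosome 7, 79374870 to 79387027), took its highest value in Positive 40. Its values were 0.43, 0.65 and 0.30 in Positive 12, 40 and 55 and 0.04 and 0.00 in Input 40 and 55. The groups were 0.26 apart. The difference was 0.61 within animal 40 and 0.30 within animal 55, and the log2 fold change of 0.44 (1.36-fold) had a 95% interval of 0.12 to 0.76 and was exceeded by 6.57% of all genes. After quantile normalization it was 0.27.

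Rdh10, a retinol dehydrogenase that also supplies retinoic acid synthesis (Entrez gene 98711, chromosome 1, 16105882 to 16132550), had 0.18, 0.45 and 0.24 in Positive 12, 40 and 55 and 0.00 and 0.06 in Input 40 and 55. The groups were separate by 0.12, and the log2 fold change was 0.26 (SE 0.11, 95% interval -0.02 to 0.54; adjusted p = 0.363 in limma). It was 0.16 after quantile normalization. Rdh11 (Entrez gene 17252, chromosome 12, 79175551 to 79191819) had 0.15, 0.26 and 0.15 in Positive 12, 40 and 55 and 0.04 and 0.00 in Input 40 and 55. Its log2 fold change, the smallest of the set, was 0.17 (SE 0.08, 95% interval -0.04 to 0.37; adjusted p = 0.394 in limma), and 0.05 after quantile normalization. Both dehydrogenase genes were highest in Positive 40. Rdh10 was higher in Positive 55 than in Positive 12, while Rdh11 had 0.15 in each of those libraries.

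The 7 genes differ in structure, and both fractions are nuclear RNA, which contains unspliced transcripts. Rpe65 spans 26127 bases with up to 15 exons in GENCODE M21, and 92.6% of its annotated span is intronic. Rdh10 spans 26669 bases and is 85.1% intronic. Lrat has at most 2 exons per transcript and is 53.0% intronic, the lowest share of the 7. Whether intronic reads were counted is not stated in the labels or headers, and a relation of intron share to the fold changes was not tested.

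Whether the pigment epithelium enzymes stood further from Input than Rlbp1, the binding protein made in Müller glia and pigment epithelium alike, was asked within libraries, as the log2 value of each enzyme minus that of Rlbp1, which cancels any scaling shared by a library. Rpe65 minus Rlbp1 was 1.09, 0.42 and 0.48 in Positive 12, 40 and 55 and -0.38 and 0.00 in Input 40 and 55. The groups did not overlap, and the means differed by 0.85 (Positive 0.66 ± 0.37 SD, n = 3; Input -0.19 ± 0.27 SD, n = 2). The two-sided exact permutation p was 0.1, the smallest that 10 arrangements can give, and 0.3 after Benjamini-Hochberg adjustment over the 3 pairs compared. The arrangements mixed all libraries freely, although animals 40 and 55 each gave a Positive and an Input library. These p-values thus do not account for that pairing. Within animals the difference was 0.80 in animal 40 and 0.48 in animal 55.

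The other enzymes were not set apart from Rlbp1 in this way. Lrat minus Rlbp1 was 0.11, 0.37 and -0.33 in Positive 12, 40 and 55 and -0.04 and -0.28 in Input 40 and 55. Its group means differed by 0.21, with overlap and with opposite signs within animal 40 (0.40) and animal 55 (-0.05), at an exact permutation p of 0.5 (adjusted 0.75); the difference was 0.05 without Positive 40, 0.09 without Input 55 and 0.39 without Positive 55. Rdh5 minus Rlbp1 was 0.14, -0.29 and 0.11 in Positive 12, 40 and 55 and 0.18 and 0.00 in Input 40 and 55. The difference was -0.10 (exact permutation p = 0.8, adjusted 0.8), and 0.03 without Positive 40, so its sign was not stable. With 3 against 2 libraries no pair could reach 0.05, and these values do not show that Lrat or Rdh5 acted like Rlbp1. Rlbp1 was the only reference used. Of the genes classed with it, Rgr had a larger log2 fold change (0.80) than Lrat (0.65) and Rdh5 (0.34). Rdh10 had a smaller one (0.26).

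**Figure D2:**
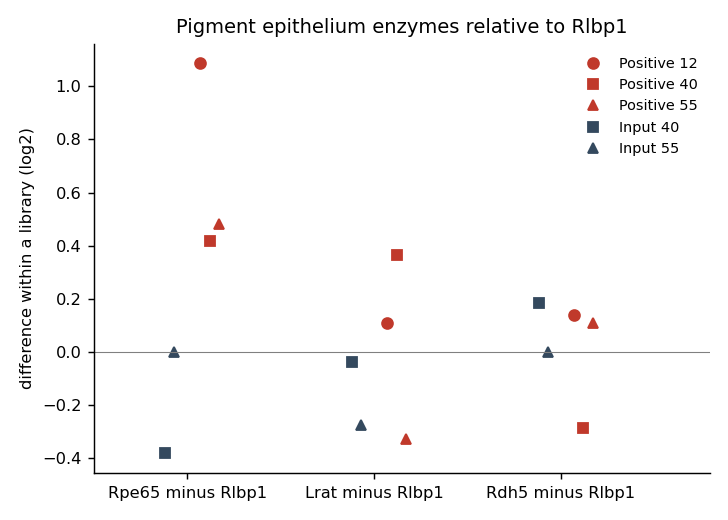
Log2 value of Rpe65, Lrat and Rdh5 minus that of Rlbp1 in the same library (vertical axis), 1 point per library. The Rpe65 points run from 0.42 to 1.09 in Positive and from -0.38 to 0.00 in Input, while the Lrat and Rdh5 points of the 2 groups overlap.

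Markers of the source cells showed how the libraries differed. Of 14 other Müller markers, all 14 had a positive log2 fold change, beside 46.99% of all genes. In 13 of them every Positive value exceeded both Input values, beside 16.7% of all genes. The median log2 fold change of the 14 was 0.45, with a range from 0.18 for Prdx6 to 0.66 for Hes1. Their median over the Input mean was 0.39 in Positive 12, 0.64 in Positive 40 and 0.32 in Positive 55. Rlbp1 had 0.41, 0.63 and 0.28 on the same scale, the same order of libraries. Lrat shared this order, while Hes1 had log2 values of 0.86, 0.59 and 0.35 in Positive 12, 40 and 55. The order was thus neither common to all Müller markers nor limited to Müller genes, and its relation to cell type was not tested. Of 15 other pigment epithelium and melanin markers measured (Mlana was not analysed here), 11 were higher and 4 lower, 6 lay above both Input values in every Positive library and 2 below (16.7% and 21.8% of all genes). Their log2 fold changes ran from -0.59 for Serpinf1, which encodes the secreted factor PEDF, to 2.37 for the melanosome gene Oca2, with Krt8, a keratin of simple epithelia, at 1.36 and Gpnmb at -0.27. Oca2 met the authors' filter in a single condition.

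The median of that pigment list was 0.18. Tyrp1 and Dct, melanin synthesis genes of the list named after their values were seen, had log2 fold changes of 1.30 and 1.12, beside 1.29 for Rpe65, with every Positive value above both Input values. For Tyr, Slc45a2 and Pmel of the same list the groups overlapped, at -0.13, 0.04 and 0.35 (limma SE 0.52 for Pmel). The list's medians over the Input mean were 0.29, 0.17 and 0.31 in Positive 12, 40 and 55. Rpe65 had 1.69, 1.24 and 0.95, the rod list had medians of 0.15, 0.14 and -0.12, which follow the same order of libraries, and the endothelial list had 0.67, 0.40 and 0.79. Of 10 endothelial markers, 9 were higher and 8 lay above both Input values (16.7% of all genes), with a median of 0.59 and Cldn5, a tight-junction gene, at 0.76. Of 15 rod markers, 10 were higher and 5 lower with a median of 0.06 (-0.05 after quantile normalization), and none lay above both Input values. The part of pigment epithelium, endothelial or Müller RNA in the differences of the 7 genes was not tested.

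**Figure D3:**
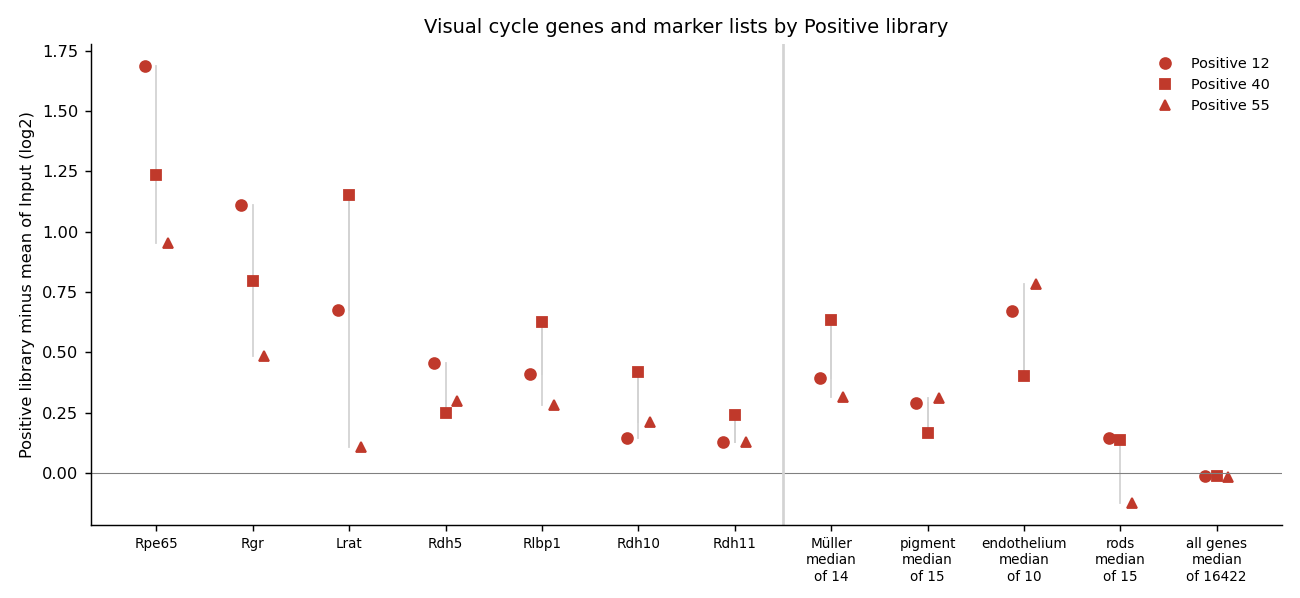
Value in each Positive library minus the mean of both Input libraries (vertical axis, log2) for the 7 visual cycle genes and, right of the line, the median of each marker list and of all genes. Rlbp1, Lrat, Rdh10, Rdh11 and the Müller median are highest in Positive 40. Rpe65, Rgr and Rdh5 are highest in Positive 12, and the all-gene median stays near -0.01 to -0.02.

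Of the other genes that handle retinoids, 31 of 36 listed were measured. None passed limma's test over all genes, 19 were higher and 12 lower, and the median log2 fold change was 0.04, or -0.01 after quantile normalization. At an unadjusted p under 0.05, 4 were higher and 1 lower, beside 6.45% and 7.76% of all genes. In 7 of the 31 every Positive value exceeded both Input values, and in 2 every one lay below both, beside 16.7% and 21.8% of all genes.

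Photoreceptor retinoid genes had a median of -0.01 over 7 genes, 3 higher and 4 lower, and the sign of that median was not stable (-0.08 to 0.01 over the 12 alternative settings, and 0.01 after median centring). Rdh8, the dehydrogenase that reduces all-trans-retinal in outer segments, had -0.35, -0.29 and -0.25 in Positive 12, 40 and 55 and 0.02 and 0.00 in Input 40 and 55. All its Positive values were the lower, by a log2 fold change of -0.31 (limma SE 0.07, adjusted p = 0.331). Abca4, the transporter that clears retinal conjugates from discs, had -0.10, -0.20 and -0.08 in Positive and 0.00 and 0.10 in Input, which differ by -0.17 on the log2 scale (limma SE 0.08). Rdh12, a dehydrogenase of photoreceptor inner segments, had 0.08 (SE 0.07) and Dhrs3, a retinal reductase, 0.06 (SE 0.08).

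Genes of retinol uptake and binding were mixed, with 4 of 5 measured members higher and a median of 0.07, which ran from 0.04 to 0.16 over the settings. Ttr, which encodes transthyretin, the plasma partner of retinol-binding protein and a product of the pigment epithelium, had 1.07, 0.80 and 0.12 in Positive 12, 40 and 55 and 0.00 and -0.18 in Input 40 and 55. It separated the groups and shared the library order of Rpe65 and Rgr, at a log2 fold change of 0.75 (limma SE 0.30, adjusted p = 0.354). Stra6, the retinol transporter gene of the pigment epithelium, had 0.05 (SE 0.14) with overlapping groups. Rbp4 had -0.71 with an SE of 0.55 and met the authors' filter in a single condition.

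Enzymes of other retinol and ester reactions had a median of 0.01 over 6 genes, again with no stable sign (-0.19 after quantile normalization, 0.15 without Input 55, -0.18 without Input 40 and -0.06 without Positive 40). Degs1, a sphingolipid desaturase proposed as an isomerase of the Müller route, had 0.57, 0.54 and 0.31 in Positive 12, 40 and 55 and 0.16 and 0.00 in Input 40 and 55. Its groups did not overlap, and its log2 fold change was 0.39 (SE 0.12; adjusted p = 0.331 in limma). Awat2, an acyltransferase proposed to make retinyl esters for the same route, had 0.09 (SE 0.27) with overlapping groups. Retsat, a retinol saturase, had -0.21 (SE 0.12) and Dgat1, an acyltransferase, -0.23 (SE 0.13).

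Genes of retinoic acid synthesis, breakdown and reception numbered 13, of which 8 were higher and 4 lay above both Input values, beside 16.7% of all genes. Their median was 0.12 and ran from 0.04 to 0.15 over the 12 alternative settings, the lowest without Positive 40. Aldh1a1, a retinaldehyde dehydrogenase, had 0.66, 0.59 and 0.53 in Positive 12, 40 and 55 and 0.09 and 0.00 in Input 40 and 55. The groups did not overlap, and the log2 fold change was 0.55 (SE 0.08; adjusted p = 0.308 in limma). Aldh1a3, a second retinaldehyde dehydrogenase, had 0.71, -0.12 and 0.87 in Positive 12, 40 and 55 and 0.00 and -0.41 in Input 40 and 55, so the groups overlapped through Positive 40. The receptor gene Rxrb had -0.08 (SE 0.09) and the binding protein gene Crabp2 had -0.21 (SE 0.18).

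**Figure D4:**
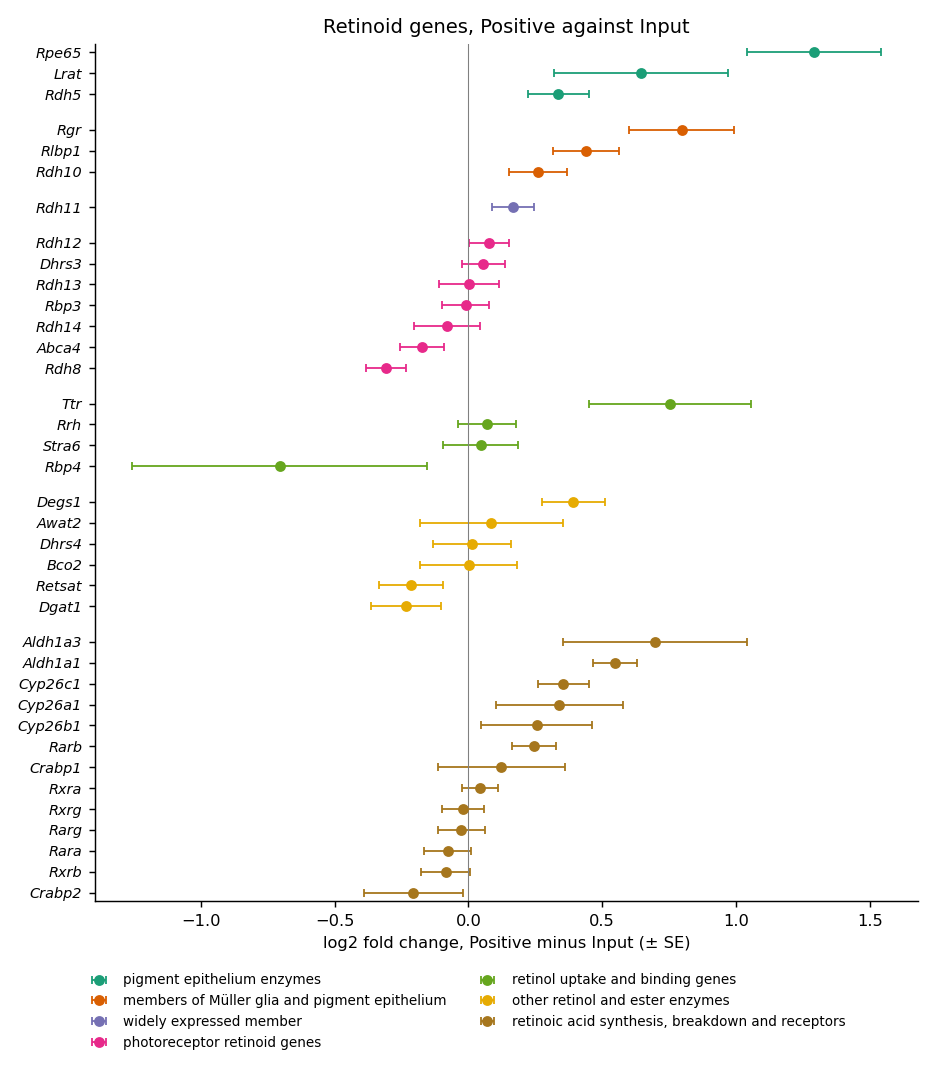
Log2 fold change of Positive against Input (horizontal axis, bars are the SE from limma) for the 7 visual cycle genes and 30 of the other retinoid genes, coloured by list. The 7 genes lie between 0.17 and 1.29, and the photoreceptor genes lie between -0.31 and 0.08.

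The genes whose 5 values ran closest to those of Rpe65 and Rlbp1, as the root mean square distance after subtracting each gene's Input mean, were sought among 15670 other genes that passed the authors' filter in both conditions. For Rlbp1 they were Pmepa1, at a distance of 0.03, and Glul, the glutamine synthetase gene and a classical Müller marker, Cp, the ceruloplasmin gene, Pop7 and Tubb2a, at 0.04 each. Within a distance of 0.1, 166 genes surrounded Rlbp1 and none surrounded Rpe65. The distance includes the size of the fold change, so these counts are not a measure of pattern alone. Of all genes, 1079 had a larger log2 fold change than Rlbp1 and 125 a larger one than Rpe65. For Rpe65 the nearest were A230009B12Rik at 0.12, Dnm3os at 0.13, Gm9376 at 0.14, the claudin gene Cldn1 at 0.14 and Krt8 at 0.19. Among the 7 genes themselves the nearest pair was Rdh10 and Rdh11 at 0.09 and the farthest Rpe65 and Rdh11 at 0.91. The points share libraries and Input means, and the distances are descriptions over 5 libraries.

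Across 12 alternative settings the log2 fold change of each of the 7 genes stayed above 0, and none of the 7 passed the threshold in any of them. Much of that sign was fixed in advance. The variance trend, the robust prior and the both-conditions filter leave a log2 fold change unchanged. The fixed replicate block repeats the values without Positive 12. Leaving out 1 library cannot bring the 6 genes with separate groups to 0. Rpe65 ran from 1.09 to 1.46, Rgr from 0.64 to 0.95, Lrat from 0.39 to 0.91 and Rlbp1 from 0.27 to 0.52. Rpe65 had the largest value of the 7 and Rdh11 the smallest under each setting.

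**Figure D5:**
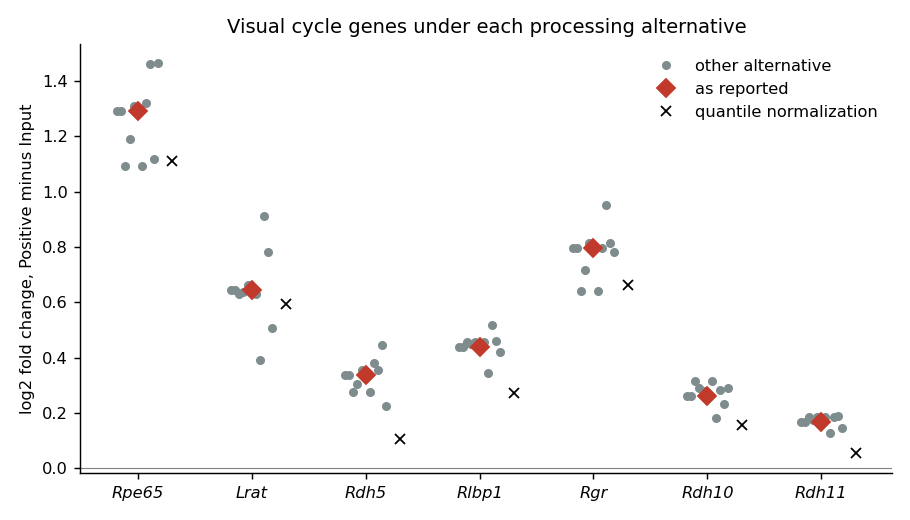
Log2 fold change of Positive against Input (vertical axis) of each visual cycle gene as reported (diamond), after quantile normalization (cross) and under the other alternatives (grey points). Rpe65 stays between 1.09 and 1.46, and quantile normalization gives the lowest value for Rdh5 (0.10), Rlbp1 (0.27), Rdh10 (0.16) and Rdh11 (0.05).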

How the data were processed

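Log2 values of 5 libraries, 3 Positive and 2 Input, were deposited by the authors in a single table. Per the file headers, gene models were RefSeq, and a gene was kept if its raw value reached 5 in all libraries of 1 or both conditions, a filter that all 7 genes met in both. Per the submitters' processing notes the build was mm10 and DESeq was used, with no version. Aligner, counter and strand use: not given in the sources used here. Input 40 alone was exactly 0 in 8847 genes and Input 55 alone in 7178, so values are relative to an Input level, and neither depth nor counting intervals can be given.

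Fractions were compared with limma 3.58.1 (R 4.3.3) on the deposited values, without a variance trend, two-sided, with Benjamini-Hochberg adjustment over all 16422 gene symbols. The fit was tested on simulated data with 200 changed genes and independent noise in each library. Not all of the changed genes were called in it. That test does not cover the pairing by animal described below. The 3 within-library differences used an exact permutation test over all arrangements of the libraries, which ignores that pairing. Animals 40 and 55 gave both fractions, so their libraries are paired, and the deviations from group means correlated at 0.174 and 0.195 across genes. The correlation within animals that limma estimated for a random replicate block was 0.514. Positive 12 has no partner analysed here.

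The genes and lists were chosen with earlier results of these data known. Named were the 7 genes, the 2 highest and 2 lowest of each list (fewer for marker lists), and the 5 genes nearest to Rpe65 and Rlbp1. Bloc1s1 and Rbm46os were named for their overlap, and Tyrp1, Dct, Tyr, Slc45a2 and Pmel outside the rule. A gene that this rule names is not reported here.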

Additional observations from a re-analysis of the deposited data

How the results depend on the processing

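Alternatives were a variance trend, a robust prior, a replicate block for animal, fixed or random, median centring, quantile normalization, genes passing in both conditions only, and leaving out each library. Leaving out 1 Input library leaves a lone Input, assumed to vary like the Positive libraries. The random replicate block called 11 genes in limma where the reported fit called 0. At an unadjusted p under 0.05 in limma, that block counted 4305 genes and the reported fit 2334. None of the 11 was among the 7 visual cycle genes, whose lowest adjusted p with that replicate block was 0.111 for Rpe65, and the fixed replicate block called 0. No blocked fit changed the call of any of the 7. Rdh5 minus Rlbp1 changed sign without Positive 40, at 0.033, and ran from -0.19 to 0.033 over the libraries left out. The median of the 31 other retinoid genes, 0.04 as reported, was -0.0093 after quantile normalization and ran from 0.013 to 0.064 when Input libraries were left out; the cause was not tested. The depth behind every value is unknown.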
